A study of Mus musculus with 14 samples.

Results

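Intermediate filaments are the ropelike cytoskeletal polymers of a cell, and 8 genes that encode their main subunits in the nervous system are described here: the neurofilament subunits Nefh, Nefm and Nefl, the neuronal subunits Ina and Prph, the progenitor subunits Vim and Nes, and the astrocyte subunit Gfap. The members were chosen by name, as the rows of the gene count table whose symbol is 1 of these 8, and all 8 were found among the 17927 genes of the table. RNA-SEQ, which counts sequenced fragments of RNA per gene, was performed on whole frozen brains of 7 WT and 7 Capn15 KO mice taken at postnatal day 2 (P2). Capn15 encodes calpain 15, a protease of the calpain family, and the question put to the RNA was which transcripts differ when it is lost. The lines were derived from C57BL/6J mice, the methods name a Capn15(lacZ-Neo) and a floxed line without saying which gave these brains, and the mice of both groups were untreated. The brains came from 6 litters, and WT and Capn15 KO brains with the same replicate number were littermates. The WT group held 2 females and 5 males, and the Capn15 KO group 4 females and 3 males.

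A neurofilament is a heteropolymer. Its light subunit, encoded by Nefl, forms the core with the medium and heavy subunits of Nefm and Nefh, whose long tails project from the filament and become heavily phosphorylated as axons mature, and with internexin alpha, encoded by Ina, which is abundant in neurons that are still extending axons. Peripherin, encoded by Prph, is found mainly in neurons that project to or lie in the periphery. Vimentin (Vim) and nestin (Nes) are the filaments of radial glia and neural progenitors, and as astrocytes mature glial fibrillary acidic protein (Gfap) becomes their main filament. Neurofilament proteins are known substrates of the classical calpains, but the measurements here are of RNA alone and say nothing of cleavage.

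The total count per library was 39937477 to 57422382 in WT, with a median of 43181055, and 37620954 to 70910163 in Capn15 KO, with a median of 50059045. Levels are given as CPM, which is the count of a gene per 1000000 counts of its library after scaling with TMM factors. The scarcest member, Prph, had at least 396 counts in each library, at which counting error alone gives a coefficient of variation of 5.03%. For Nefl, the most counted member, the fewest counts in a library were 14361, and the same error is 0.834%. The SD between brains was larger than this counting error for every member in both groups. Capn15 itself, the check of the labels, had a mean of 25.4 CPM ± 3.07 (SD, n = 7) in WT brains and of 14.5 CPM ± 2.67 (SD, n = 7) in Capn15 KO brains, and it was lower in KO in 6 of 7 littermate pairs. In litter F it went the other way, with 18.7 CPM in the library labelled WT replicate 7 and 20.2 CPM in the library labelled Capn15 KO replicate 7, so the genotype results of the members are also given without litter F. The labels name the cell type as neurons. All 8 pan-neuronal markers were present, with a summed level of 6788 to 7343 CPM in WT, but so were the 9 astrocyte markers, at 817.7 to 1268 CPM, and the 9 radial glia markers, at 1868 to 2235 CPM, so the libraries hold RNA of the mixed cells of a brain. In such bulk samples fewer cells of a type and less RNA per cell cannot be told apart.

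The genes lie at 7 separate places in the genome, given here for GRCm38. Nefh is on the minus strand at chr11:4938754-4948064. Nefm, at chr14:68082590-68124846 on the minus strand, overlaps Nefl, at chr14:68083863-68089095 on the plus strand. The annotated exons of Nefm and Nefl share 1108 bases on opposite strands, which is 19.2% of the exon bases of Nefm and 32.8% of those of Nefl. Ina, at chr19:47014698-47025327 on the plus strand, shares 456 exon bases (14.1% of its own) with Nt5c2 on the opposite strand. The strand setting of the counting is not given in the sources used here, so reads from these shared bases may have been assigned to either gene or to neither. Prph lies on the plus strand at chr15:99055174-99058978, Vim on the plus strand at chr2:13573927-13582826, Nes on the plus strand at chr3:87971078-87980451 and Gfap on the minus strand at chr11:102887336-102900912. The longest coding transcripts of Nefh, Nefm, Nefl and Nes have 4 exons and that of Ina has 3, whereas those of Vim and Gfap have 9 and that of Prph has 8.

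Promoter sequences are shown for the members with an entry in the RefSeq promoter table used here (GRCm38.p6), because 4 of them (Vim, Nes, Gfap and Ina) differed between litters, some together and some in opposite directions, as described further on. The entries matched Vim, Nes, Gfap, Prph and Ina. Each run is the 100 bases before the RefSeq start site, 5′ to 3′ on the strand of the gene, and capitals mark the TATA box (searched as TATAAA), the CCAAT box (searched as CCAAT) and the GC box (searched as GGGCGG) on either strand. No 2 of these motifs overlap in the runs shown.
Vim, chr2:13574211-13574310, plus strand: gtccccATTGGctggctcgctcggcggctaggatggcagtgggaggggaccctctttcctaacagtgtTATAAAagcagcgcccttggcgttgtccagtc
Nes, chr3:87970993-87971092, plus strand: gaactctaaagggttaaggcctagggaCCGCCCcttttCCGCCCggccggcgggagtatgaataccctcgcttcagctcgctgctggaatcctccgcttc
Gfap, chr11:102897201-102897300, minus strand: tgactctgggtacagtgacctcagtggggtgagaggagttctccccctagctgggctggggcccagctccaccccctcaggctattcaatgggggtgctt
Prph, chr15:99055074-99055173, plus strand: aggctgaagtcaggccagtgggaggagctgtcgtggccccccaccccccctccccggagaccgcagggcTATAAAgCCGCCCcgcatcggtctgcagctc
Ina, chr19:47014581-47014680, plus strand: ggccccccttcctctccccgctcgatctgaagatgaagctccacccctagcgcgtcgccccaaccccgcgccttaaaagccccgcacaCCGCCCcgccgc

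Vim and Prph held TATAAA, whose first base lay at position -32 and position -31, counted back from the base before the start site as -1. In the 250 bases before the start, TATAAA stood in 2 of the 5 promoters, against 12.4% of all 32851 promoters of the table. CCAAT stood in 1 of the 5 (Vim) against 33.8%, and GGGCGG in 3 of the 5 (Nes, Prph and Ina) against 32.7%. Ina had 25 CpG dinucleotides in this window and Gfap had 2, and the median over all promoters was 6. These matches describe letters only, and no binding was measured.

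The levels of the members were first set in order, per kilobase of annotated exon so that genes of different length could be compared. In the 7 WT brains Nefl was highest, at 129 CPM per kb ± 10.01 (SD, n = 7), which placed it at rank 230 among 17915 genes with a length. Ina followed at 73.0 CPM per kb ± 7.76, and Vim at 42.0 CPM per kb ± 2.55. In a newborn brain the light neurofilament subunit and internexin alpha were thus the most abundant filament transcripts on this scale, with the progenitor filament vimentin next. Nefm was at 20.4 CPM per kb ± 2.74, Gfap at 17.3 CPM per kb ± 5.84 and Nes at 14.4 CPM per kb ± 1.15. Nefh was at 7.70 CPM per kb ± 1.61 and Prph at 5.09 CPM per kb ± 0.462, the lowest of the family, although 55.1% of all genes were lower still.

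Neighbours in this order were compared within each WT library with exact sign-flip tests, adjusted over the 7 neighbouring pairs. Nefl was 1.77-fold above Ina, Ina 1.73-fold above Vim, Vim 2.07-fold above Nefm and Nes 1.90-fold above Nefh, each in 7 of 7 libraries (exact sign-flip p = 0.0156, adjusted p = 0.0273 for each). Nefh was 1.49-fold above Prph in 6 of 7 libraries (exact sign-flip adjusted p = 0.0438). Between Nefm and Gfap (1.24-fold, exact sign-flip adjusted p = 0.128) and between Gfap and Nes (1.13-fold, exact sign-flip adjusted p = 0.516) no difference beyond the spread was found. Gfap ranged from 8.02 to 24.5 CPM per kb among the WT brains, the widest range in proportion to its mean. The mean levels in the 7 Capn15 KO brains had the same order. With the longest coding transcript as the length, Vim, at 90.9 CPM per kb, stood above Ina, at 73.0 CPM per kb. The step from Nefh to Prph was then 1.39-fold and did not pass 0.05 (exact sign-flip adjusted p = 0.0547).

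**Figure D1:**
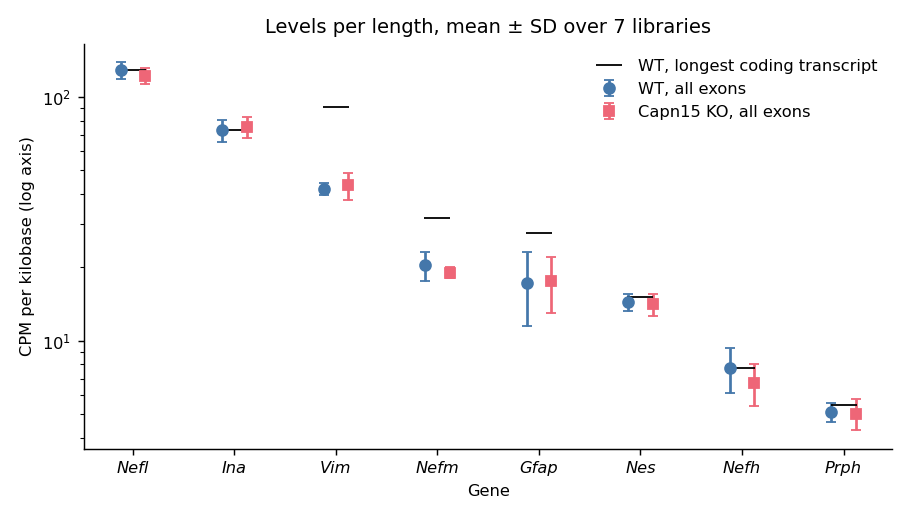
Level of each member in CPM per kilobase on a log axis, as mean ± SD over 7 WT (circles) and 7 Capn15 KO libraries (squares), with black dashes for the WT mean per kilobase of the longest coding transcript. Nefl was highest at 129 CPM per kb in WT and Prph lowest at 5.09 CPM per kb, and the dash for Vim lies above that for Ina.

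To ask which members differed with genotype, edgeR's quasi-likelihood test was run on every gene, with terms for litter and sex, and an FDR was computed over all 17927 genes. Of the 8 members 0 passed an FDR of 0.05 (0.00558% of all genes did, which was 1 gene). DESeq2 called 2 of the members, Nefh and Nefl, and 17 of all 17927 genes. At an unadjusted p under 0.05 the quasi-likelihood test picked 5.14% of all genes and 3 of the 8 members. All 3 were lower in Capn15 KO (2.26% of all genes were) and 0 were higher (2.88% of all genes were). They were the neurofilament subunits Nefh, Nefm and Nefl. The median log2 fold change of the 8 members was -0.055, and that of all genes was 0.0015. Nefh is also among the genes the study itself called in these libraries, so its direction here is not independent evidence. With sex and litter as variables too, the study listed larger decreases of Nefh and Capn15 and called more genes than the fit here. The fit here gave a log2 fold change of -0.23 for Nefh and of -0.81 for Capn15 (edgeR FDR = 0.0747 for each). The cause of this difference was not tested.

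Nefh, the heavy subunit, had the lowest FDR of the family. In the WT brains it was at 22.9 CPM in the lowest, 30.2 CPM at the median and 39.3 CPM in the highest library, and in the Capn15 KO brains at 20.3, 27.2 and 34.3 CPM. The groups overlapped over most of their range, and the 3 lowest KO libraries (replicates 2, 3 and 4) lay below the lowest WT library. Within litters the picture was more even, since Nefh was lower in the KO brain in 7 of 7 littermate pairs (0.597% of all genes were), by 0.010 to 0.35 on the log2 scale. The fitted log2 fold change was -0.23 (SE 0.0346), a change of -14.6%, for which edgeR gave an unadjusted p of 1.25e-05 and an FDR of 0.0747. An exact sign-flip test over the 7 pairs gave p = 0.0156, the smallest it can give, while an exact permutation test of 7 against 7 libraries, which ignores litter, gave p = 0.237. DESeq2, at an adjusted p of 0.00306, and edgeR's likelihood ratio test, at an FDR of 3.2e-05, placed Nefh past the threshold that the quasi-likelihood test missed. Without the libraries of litter F the log2 fold change was -0.21 with an edgeR FDR of 0.161, and Nefh was lower in KO in 6 of the 6 remaining pairs (exact sign-flip p = 0.0313, the smallest that 6 pairs can give).

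Nefl, the core subunit, was at 392.0, 435.6 and 490.8 CPM in the lowest, median and highest WT library and at 360.4, 416.1 and 443.3 CPM in the KO libraries. It was lower in KO in 5 of 7 pairs, though in 2 of those pairs by 0.048 or less on the log2 scale. The largest differences were in litter C (435.4 CPM in WT against 360.4 CPM in KO), litter F (490.8 against 443.3 CPM) and litter D (453.2 against 416.1 CPM). The fitted log2 fold change was -0.11 (SE 0.0254, edgeR unadjusted p = 0.000885, FDR = 0.418), and DESeq2 gave an adjusted p of 0.0456. Over the pairs an exact sign-flip test gave p = 0.0938. Without litter F the log2 fold change was -0.099 (edgeR unadjusted p = 0.00385) and the exact sign-flip p was 0.188.

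Nefm, the medium subunit, was at 98.1, 116.8 and 148.0 CPM in the lowest, median and highest WT library and at 99.5, 111.5 and 116.6 CPM in the KO libraries. The KO libraries lay close together, and 5 WT libraries were higher than all of them. Nefm was lower in KO in 5 of 7 pairs and higher in both pairs of litter B, where it was 104.4 and 98.1 CPM in WT against 115.0 and 116.6 CPM in KO. Its fitted log2 fold change was -0.13 (SE 0.0562, edgeR unadjusted p = 0.0317, FDR = 0.935). This value depended on litter F, whose WT library was the highest of all, and without the libraries of that litter it was -0.072 (edgeR unadjusted p = 0.132). It was -0.14 without Capn15 KO replicate 4 (edgeR unadjusted p = 0.0787) and -0.20 without either replicate 5 library (edgeR unadjusted p = 0.00884 without the KO and 0.00887 without the WT library). An exact sign-flip test over the pairs gave p = 0.344, and p = 0.688 without litter F.

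Ina, which encodes the neurofilament partner internexin alpha, was close to equal in both groups. It was at 203.9, 240.2 and 276.7 CPM in the lowest, median and highest WT library and at 208.7, 241.9 and 277.1 CPM in the KO libraries, so the ranges of the groups were nearly the same. In 6 of 7 pairs it was higher in KO, each by no more than 0.083 on the log2 scale (exact sign-flip p = 0.0469, and 0.0938 without litter F), and the fitted log2 fold change was 0.038 (SE 0.0268, edgeR unadjusted p = 0.182) and 0.039 without litter F. Prph, the peripheral neuron subunit, was at 8.82 to 11.9 CPM in WT and at 8.05 to 12.4 CPM in KO, with a log2 fold change of -0.071 (SE 0.0659, edgeR unadjusted p = 0.299). Its pairs went both ways, from -0.31 in litter C to 0.33 in 1 pair of litter B. The fitted value moved with single litters, to -0.13 without litter F (edgeR unadjusted p = 0.0628) or without its WT library alone (edgeR unadjusted p = 0.0559), and to -0.040 and -0.044 without a library of replicate 4 or replicate 5.

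For the filaments of progenitors and astrocytes no difference between the genotypes passed an unadjusted p of 0.05 with all 14 libraries. Vim was at 176.8 to 212.2 CPM in WT and at 178.1 to 242.8 CPM in KO, with a log2 fold change of 0.031 (SE 0.0425, edgeR unadjusted p = 0.472). The highest Vim values were those of the KO brains of litter B, at 242.8 and 238.8 CPM. Nes was at 82.4 to 102.8 CPM in WT and at 79.5 to 105.7 CPM in KO, with a log2 fold change of -0.039 (SE 0.0349, edgeR unadjusted p = 0.282). This value was -0.092 without WT or KO replicate 4 (edgeR unadjusted p = 0.0211 and 0.0205), -0.0068 without either replicate 5 library and -0.018 without litter F. Gfap was at 33.8 to 103.4 CPM in WT and at 49.2 to 100.8 CPM in KO, with a log2 fold change of 0.034 (SE 0.0947, edgeR unadjusted p = 0.722). Its standard error was the widest in the family, and 1 pair of litter B, with 33.8 CPM in WT and 60.5 CPM in KO, differed by 0.84 on the log2 scale. The direction for Vim and Gfap turned when all 4 litter B libraries were left out, to -0.025 and -0.083. Without litter F the values were 0.066 for Vim and 0.020 for Gfap.

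**Figure D2:**
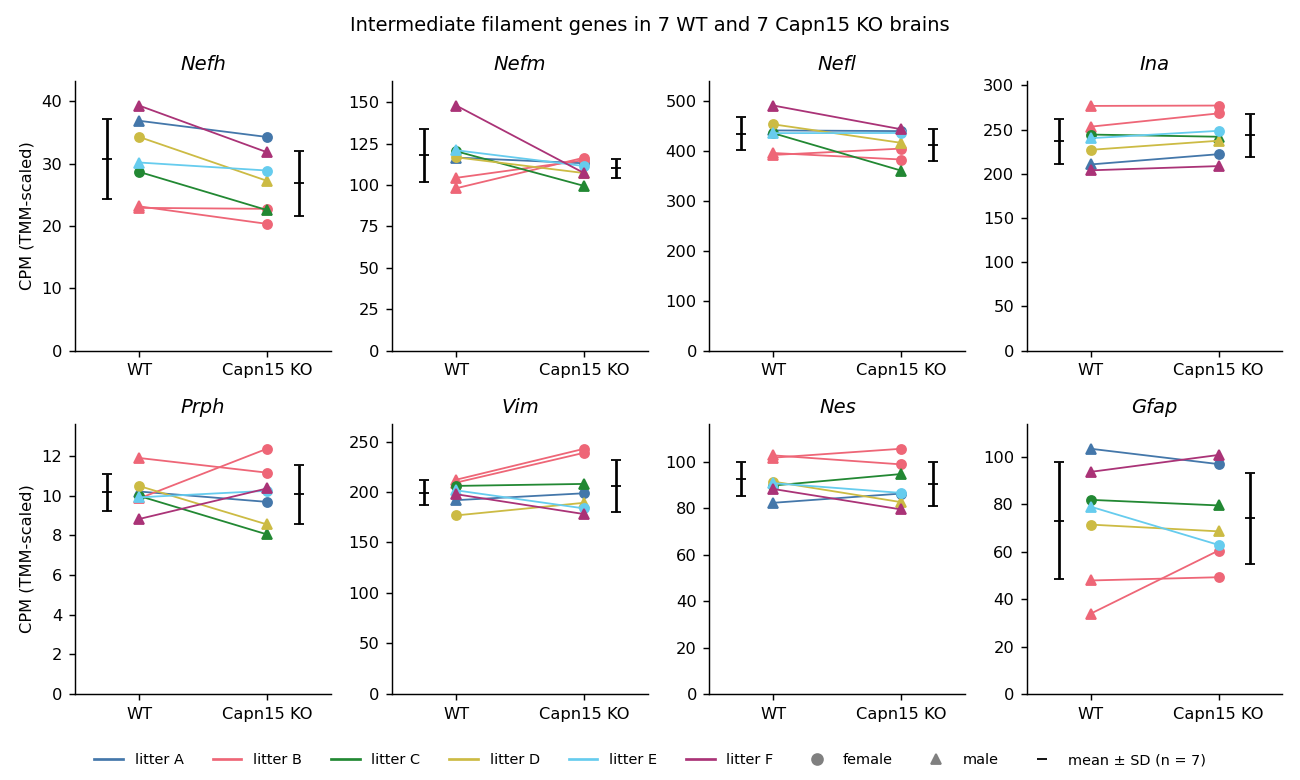
CPM of each member in the 7 WT and 7 Capn15 KO libraries, 1 panel per gene with the axis from 0, lines joining libraries of the same replicate number and litter, circles for females, triangles for males and black bars for the mean ± SD. All 7 lines fall from WT to KO for Nefh, the Nefm line of litter F falls most steeply, from 148.0 to 107.2 CPM, and the 4 litter B libraries lie lowest for Gfap and highest for Nes.

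Ratios of 2 members within a library do not depend on how libraries are scaled, and 6 such ratios were compared. The count of Nefh was 0.0702 ± 0.01002 (SD, n = 7) of that of Nefl in WT and 0.0648 ± 0.00856 in KO, lower in KO in 7 of 7 pairs by a mean of 0.11 on the log2 scale (exact sign-flip p = 0.0156, adjusted over 6 ratios p = 0.0938). The count of Ina was 0.550 ± 0.0985 of that of Nefl in WT and 0.596 ± 0.0911 in KO, higher in 6 of 7 pairs by a mean of 0.12 (exact sign-flip p = 0.0313, adjusted p = 0.0938). Neither passed after adjustment, and the groups overlapped for both. Without the pair of litter F the exact sign-flip p was 0.0313 and 0.0625, and both adjusted p were 0.188. The ratio of Nefm to Nefl, 0.270 ± 0.0173 in WT and 0.268 ± 0.0213 in KO, went down in 4 pairs and up in 3 (exact sign-flip p = 0.781). For Prph to Nefl (exact sign-flip p = 0.531), Nes to Vim (p = 0.266) and Gfap to Vim (p = 0.875) the differences were within the spread of the pairs.

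Sex and genotype are partly tied in this design, because the 2 brains of a pair were of opposite sex in 6 of 7 pairs. The neurofilament differences varied with that arrangement. In the 4 pairs with a WT male and a KO female the mean KO minus WT difference on the log2 scale was -0.091 for Nefh, -0.0015 for Nefl and 0.057 for Nefm. In the 2 pairs with a WT female and a KO male it was -0.34 for Nefh, -0.20 for Nefl and -0.20 for Nefm. Pair 7, in which both brains were male, had -0.30 for Nefh, -0.15 for Nefl and -0.46 for Nefm, but it is the pair of litter F. In models of genotype alone, or of genotype and sex without litter, 0 of the 8 members had an edgeR unadjusted p under 0.05, against 260 and 263 of all genes, and Nefh kept a log2 fold change of -0.20 in each.

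The same fit gave a sex term adjusted for genotype and litter. No litter held brains of the same genotype and different sex. The term was therefore read from how the KO minus WT differences varied between pairs. It is not a result separate from the pair differences above. At an unadjusted p under 0.05 for sex the fit picked 5.04% of all genes and 4 of the 8 members. All 4 were higher in females (2.41% of all genes were), and of the 8 members 0 passed an FDR of 0.05 (0.0669% of all genes did). The female minus male log2 fold change was 0.13 for Nefh (SE 0.0375, edgeR unadjusted p = 0.00374), 0.10 for Nefl (SE 0.0274, edgeR unadjusted p = 0.00253), 0.15 for Nefm (SE 0.0606, edgeR unadjusted p = 0.0293) and 0.16 for Prph (SE 0.0710, edgeR unadjusted p = 0.0460). These are values of the model and not of the plain means, since the mean of Nefh was 28.2 CPM ± 5.76 (SD, n = 6) in females and 29.3 CPM ± 6.47 (SD, n = 8) in males. For Ina, Vim, Nes and Gfap the edgeR unadjusted p was 0.528 or higher. Without WT replicate 3 or KO replicate 3 the number of members past 0.05 was 2 in place of 4. These fits picked 687 and 775 of all genes, against 904 with all 14 libraries. The edgeR unadjusted p in them was 0.0622 and 0.0615 for Nefm and 0.0906 and 0.0876 for Prph.

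**Figure D3:**
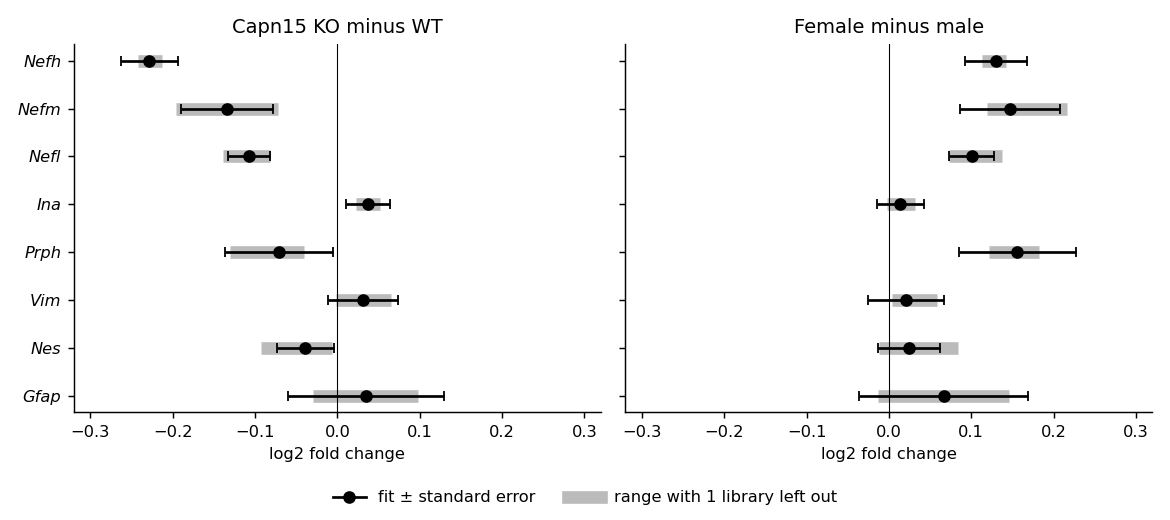
Fitted log2 fold change of each member between genotypes (left) and sexes (right), as points with standard errors, with grey bars for the range when each of the 14 libraries was left out in turn. The 3 neurofilament subunits lie below 0 on the left, where Nefh stayed between -0.24 and -0.21, and above 0 on the right.

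More members differed between litters than between genotypes. Of the 8 members 6 differed between litters at an FDR under 0.05 (29.6% of all genes did), the exceptions being Nefm (edgeR FDR = 0.179) and Prph (edgeR FDR = 0.156). Litter B, which gave 4 of the 14 brains, had the lowest or the highest mean for all 8 members. Its mean was lowest for Gfap (mean 47.9 CPM), Nefh (22.3 CPM), Nefl (393.8 CPM) and Nefm (108.5 CPM). Its mean was highest for Ina (268.8 CPM), Vim (225.8 CPM), Nes (102.3 CPM) and Prph (11.3 CPM). Litters A and F lay at the other end, with the 2 highest means of Nefh and Gfap and the 2 lowest of Ina and Nes.

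Gfap showed the widest range, from 47.9 CPM in litter B to 100.2 CPM in litter A, a 2.09-fold difference (edgeR FDR = 0.000721). Nefh went from 22.3 CPM in litter B to 35.6 CPM in litter A, 1.60-fold (edgeR FDR = 1.09e-05), and the 4 litter B libraries, at 20.3 to 23.2 CPM, were all below the libraries of litters A, D, E and F. Ina went from 206.3 CPM in litter F to 268.8 CPM in litter B, 1.30-fold (edgeR FDR = 0.000209). For Ina 93.3% of the sum of squares of log2 CPM lay between litters, and for Gfap, Nes and Nefh 84.9%, 83.7% and 83.7%. For Nefm the share was 26.4%, and the median over the 10556 genes with a mean of at least 10 CPM was 67.9%. Without litter B, 2 of the 8 members still differed between the remaining litters, Nefh (edgeR FDR = 0.00947) and Gfap (edgeR FDR = 0.0179), with 196 genes in all, against 5301 with it.

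**Figure D4:**
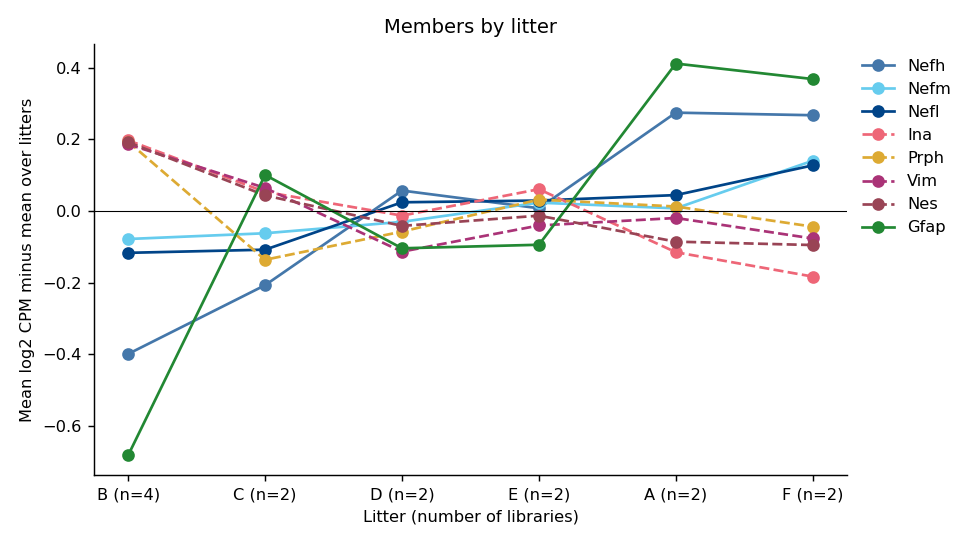
Mean log2 CPM of each member in each litter, minus the mean over the 6 litters, with solid lines for Nefh, Nefm, Nefl and Gfap and dashed lines for Ina, Prph, Vim and Nes. In litter B the solid lines lie below 0 and the dashed lines above it, and in litters A and F Gfap and Nefh are highest.

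The members were then compared with each other over the 14 libraries, with genotype means taken out. Of 28 pairs of genes 14 had an adjusted permutation p under 0.05, 7 of them positive and 7 negative. The permutations shuffled all 14 libraries freely, so these p-values ignore litter and treat littermates as independent. Nefh went with Nefl (Pearson's r = 0.90, permutation p = 2e-05, adjusted p = 0.000467, Spearman's rho = 0.93, permutation p = 1e-05, adjusted p = 0.00028, n = 14), and r was 0.86 without the 2 libraries farthest from the median of Nefh. Nefh and Ina went against each other (r = -0.89, permutation p = 5e-05, adjusted p = 0.000467, rho = -0.88, permutation p = 7e-05, adjusted p = 0.00098, n = 14), with r = -0.87 without the 2 farthest libraries. Nefh and Gfap went together (r = 0.83, permutation p = 0.0002, adjusted p = 0.00112, rho = 0.82, permutation p = 0.00066, adjusted p = 0.00264, n = 14), with r = 0.76 without the 2 farthest libraries. Vim and Nes, the progenitor filaments, also went together (r = 0.81, permutation p = 0.00034, adjusted p = 0.00136, rho = 0.78, permutation p = 0.00147, adjusted p = 0.00428, n = 14), with r = 0.71 without the 2 farthest libraries.

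Most of these relations lay between litters. With litter means subtracted in place of genotype means, r was -0.34 for Nefh and Ina, 0.0025 for Nefh and Gfap and 0.21 for Vim and Nes. Nefh and Nefl kept r = 0.91, and Nefm and Nefl had r = 0.71. Subtracting litter means leaves the differences between genotypes and sexes in these values. With genotype means subtracted Nefm and Nefl also had r = 0.71 (permutation p = 0.00317, adjusted p = 0.00888), but their Spearman's rho was 0.38 (permutation p = 0.186, adjusted p = 0.282), r was 0.51 without the 2 libraries farthest from the median of Nefm, and it was 0.36 in the residuals of the model with litter, sex and genotype. An absolute r above 0.6 was found for 14 pairs of genes with genotype means subtracted and for 4 with litter means subtracted. In the residuals of a model with litter, sex and genotype, which has 6 degrees of freedom left, 3 pairs of genes had such an r. They were Nefm and Vim (r = 0.93), Nefh and Nefl (r = 0.69) and Nefh and Prph (r = -0.61).

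**Figure D5:**
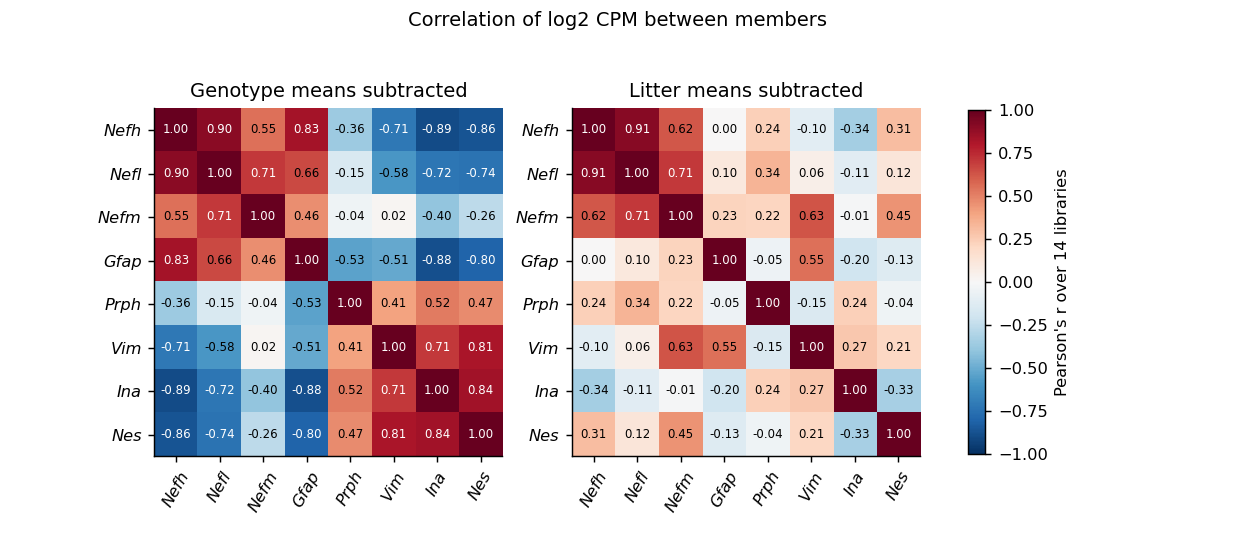
Pearson's r of log2 CPM between members over 14 libraries, with genotype means subtracted (left) and litter means subtracted (right), on a color scale from -1 to 1. On the left Nefh, Nefl and Gfap form a block against Ina, Nes and Vim. On the right r is 0.91 for Nefh and Nefl, 0.71 for Nefm and Nefl and 0.62 for Nefh and Nefm (0.55 on the left). Nefm with Vim has r = 0.63 on the right but 0.020 on the left.

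Over all genes with a mean of at least 10 CPM, the 3 whose levels followed each member most closely were listed by Pearson's r over the 14 libraries with genotype means subtracted. The libraries share litters and depth, so these values describe the libraries only. For Nefh they were Epb41l3 (r = 0.97), Lynx1 (r = 0.97) and Cck (r = 0.96). Lynx1 encodes a membrane-tethered modulator of nicotinic receptors and Cck the neuropeptide cholecystokinin. Like Nefh, Lynx1 is among the genes the study called lower in these libraries. With litter means subtracted, which leaves the genotype differences in, the r of Lynx1 was 0.87 and that of Cck was 0.095. For Nefl they were Zmat4, Gjd2 (which encodes the neuronal gap junction protein connexin 36) and Rassf4, with r from 0.92 to 0.93. For Ina they were Islr2, Cntn2 (a cell adhesion molecule of growing axons) and Pbx3, with r from 0.98 to 0.99, and all 3 kept r of 0.82 to 0.91 with litter means subtracted. For Gfap they were Man1c1 (r = 0.97), Tnfaip8 (r = 0.97) and Aqp4 (r = 0.95), the last being the water channel of astrocyte endfeet. Vim was followed by Ubxn1, Hsp90ab1 and Rbm3, with r from 0.96 to 0.97, and Nes by Adh5, Rps27 and Rps27a, with r of 0.97. The closest genes of Nefm (Yipf5, Abcf3 and Anp32b) and Prph (Nsun3, Rfesd and Haus2) had lower r, from 0.87 to 0.90.

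Other genes of the filament system were counted by fixed lists. Of the other intermediate filament genes (lamins, keratins, desmin and the like) 18 of 24 were in the table, 15 had a negative log2 fold change and 1 reached an unadjusted p under 0.05, namely Krt7, a keratin of simple epithelia, at 0.426 CPM on average, with a log2 fold change of -0.56 (SE 0.231, edgeR unadjusted p = 0.0308). The most abundant, Lmnb1, Synm and Lmnb2, which encode lamins of the nuclear envelope and the vimentin partner synemin, had log2 fold changes of -0.023, -0.0010 and -0.024. Of 11 genes for linkers and turnover of filaments 0 had an edgeR unadjusted p under 0.05, and the most abundant, Macf1, Dst and Trim2, had log2 fold changes of 0.065, 0.050 and -0.0017. Macf1 and Dst encode spectraplakins, which link filaments to microtubules and actin.

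Of 12 genes for enzymes that act on neurofilament tails, 1 was higher at an unadjusted p under 0.05, Gsk3b, which encodes a kinase of the tail repeats (log2 fold change 0.058, SE 0.0253, edgeR unadjusted p = 0.0378, FDR = 0.954). Of the abundant ones, Ppp2ca and Cdk5r1 had log2 fold changes of -0.0081 and -0.0036. Of 7 genes for the motors of filament transport, 2 were higher (2.88% of all genes were) and 0 lower (2.26%) at an unadjusted p under 0.05. By sign alone, 4 of the 7 had a negative log2 fold change and 3 a positive one. Dync1h1, the heavy chain of cytoplasmic dynein, averaged 1283 CPM ± 93.1 (SD, n = 7) over WT and 1361 CPM ± 98.2 (SD, n = 7) over KO, and it was lower in KO in 0 of 7 pairs (log2 fold change 0.11, SE 0.0275, edgeR unadjusted p = 0.00165, FDR = 0.466). Myo5a, a myosin that binds neurofilaments, had a log2 fold change of 0.068 (SE 0.0255, edgeR unadjusted p = 0.0192, FDR = 0.860). The kinesin genes Kif5c, Klc1 and Kif5a, which carry filaments outward, had log2 fold changes of -0.037, 5.6e-05 and -0.0026.

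Markers of the cells that hold these filaments were read beside the members. Of 8 pan-neuronal markers 0 had an edgeR unadjusted p under 0.05, and their median log2 fold change was 0.016. The most abundant, Tubb3, Map2 and Stmn2, which encode tubulin and microtubule-binding proteins of neurons, had log2 fold changes of 0.012, 0.024 and 0.0074. All 14 markers of hindbrain and glycinergic neurons had a negative log2 fold change, with a median of -0.29 in the fit, although their summed level was lower in KO in only 2 of 7 pairs (replicates 4 and 5), and 3 had an unadjusted p under 0.05 (Hoxb3, Hoxc4 and Hoxc5). The most abundant, Slc6a5 (the neuronal glycine transporter), Hoxa5 and Hoxb3, had log2 fold changes of -0.19, -0.47 and -0.29. The study itself called Slc6a5, Hoxb3 and Hoxc4 lower in these libraries, so their direction here is not independent evidence. Of the same 14, 13 were higher in females at an unadjusted p under 0.05 (2.41% of all genes were), as Nefh, Nefm, Nefl and Prph were. Replicates 4 and 5, where the sum was lower in KO, are the 2 pairs with a WT female and a KO male. The sex term of these markers is thus not separate from that pair pattern. The summed level of the 14 markers was 37.7 to 65.5 CPM in WT and 22.3 to 69.9 CPM in KO, and none of them was at 0 in a library. The lowest sum was that of Capn15 KO replicate 4, which also had the lowest Nefl, at 360.4 CPM, and the lowest Prph, at 8.05 CPM. Without Capn15 KO replicate 4 the log2 fold changes were -0.23 for Nefh (edgeR unadjusted p = 0.000104), -0.082 for Nefl (edgeR unadjusted p = 0.0122) and -0.14 for Nefm (edgeR unadjusted p = 0.0787), and that of Nes was -0.092 (edgeR unadjusted p = 0.0205).

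All 6 oligodendrocyte markers had a negative log2 fold change, 1 of them (Mag) with an unadjusted p under 0.05, and all 6 differed between litters at an edgeR FDR under 0.05. Their summed level was 123.0 to 292.7 CPM in WT and 137.1 to 322.6 CPM in KO, with the highest sums in litters A and F, where Nefh and Gfap were also highest. Of the abundant ones, the myelin gene Mbp and the lineage factor Olig2 had log2 fold changes of -0.11 and -0.016. Of 9 astrocyte markers 2 were lower (Gja1 and Gjb6) and 0 higher at an unadjusted p under 0.05, with a median log2 fold change of -0.037 and a summed level of 817.7 to 1268 CPM in WT and 900.8 to 1214 CPM in KO. The most abundant, Slc1a2, Aldoc and Gja1, had log2 fold changes of 0.0072, 0.00015 and -0.13. Of 9 radial glia markers 0 had an edgeR unadjusted p under 0.05, and the most abundant, Fabp7, Slc1a3 and Ptprz1, had log2 fold changes of -0.018, 0.031 and 0.026. The 6 cholinergic motor neuron markers in the table summed to 25.9 to 40.0 CPM in WT and 31.0 to 37.9 CPM in KO, with log2 fold changes of 0.050, -0.038 and -0.15 for the most abundant, Isl1, Slc5a7 and Slc18a3. The 8 peripheral sensory neuron markers, of which 5 were under 1 CPM, summed to 14.7 to 19.9 CPM in WT and 13.1 to 21.3 CPM in KO, with log2 fold changes of -0.11 and -0.10 for Pou4f1 and Calca. Of these motor and sensory markers 0 had an edgeR unadjusted p under 0.05. Of the remaining lists, 1 of 5 reactive glia genes (Steap4), 1 of 6 fibroblast markers (Lum) and 1 of 7 vessel markers (Acta2) were lower and 1 of the 7 vessel markers (Cldn5) was higher at an unadjusted p under 0.05, and 0 of 4 microglia and 0 of 3 red blood cell markers had an edgeR unadjusted p under 0.05. The part of these markers in the differences of the members was not tested.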

How the data were processed

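RNA-SEQ libraries were made from rRNA-depleted RNA of 14 P2 brains. Per the study's methods, the authors trimmed reads with Trimmomatic, aligned them to GRCm38 with STAR and counted them per gene with HTSeq-count, while the labels list featureCounts and Subread. Kit and instrument are ScriptSeq and HiSeq in the methods, and TruSeq stranded and NovaSeq in the labels. The deposited values are raw counts per gene, not normalized, 1 column per brain. The annotation release, strand setting and gene filter of the authors are not given in the sources used here. The labels gave genotype and replicate number, and the column names added litter and sex. No column of values was left unused.

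Tests used edgeR 4.0.16 in R 4.3.3 (quasi-likelihood test, TMM factors, all 17927 genes, genotype, litter and sex, Benjamini-Hochberg FDR), with limma 3.58.1 and DESeq2 1.42.0 as alternatives, and Python 3.11.15 (scipy 1.17.1, numpy 2.4.6, pandas 2.3.3, matplotlib 3.10.9). Fold changes of the model are log2 values computed from the deposited counts. Log2 CPM used a prior count of 2. GENCODE M21 gave positions and exon lengths for 17915 genes. Exact tests were two-sided and covered 3432 regroupings of 7 against 7 libraries (smallest p 0.000583) or 128 sign flips of 7 pairs (smallest p 0.0156), and correlations used 100000 permutations, whose smallest p is 1e-05. Scripts were tested on simulated data. Intervals of counting error leave out PCR duplication.

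The column names put same-numbered WT and KO libraries in the same litter, with 2 such pairs in litter B. Deviations of same-numbered libraries correlated by 0.00069 on average over 10556 genes (-0.68 to 0.64). No 2 libraries agreed within sampling noise, the closest differing by a chi-square of 4.65 per gene. Nothing states that brains were processed separately beyond their labels, so p-values measure the spread between these libraries.

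The members and gene lists were chosen with earlier results of these data known. Named genes are the 8 members, Capn15, the 3 genes most like each member by Pearson's r among genes of at least 10 CPM, of each list the 3 genes with the highest CPM, and from the lists of filament genes any with an unadjusted p under 0.05. Other marker genes were named after their values were seen, and of reactive glia, fibroblast, vessel, microglia and red blood cell genes only counts and the genes with such a p are given. Some listed genes that this rule names are not reported here. Alternatives were other tests, scalings, filters and covariates, the replicate block, other lengths and centrings, and each library left out. Protein measurements of the study were not analysed here.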

Additional observations from a re-analysis of the deposited data

How the results depend on the processing

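The genotype fit was repeated under 26 alternatives. Nefh, Nefl, Nefm, Prph and Nes kept their negative sign and Ina its positive sign in all 26, and Nefh ranged from -0.24 to -0.19 on the log2 scale. Nefh passed an FDR of 0.05 with edgeR's likelihood ratio test (-0.23, FDR 3.2e-05) and with DESeq2 (-0.23, adjusted p 0.00306). The number of genes called in KO was 1 in edgeR's quasi-likelihood test, 34 in its likelihood ratio test, 17 in DESeq2, 2 with genotype and litter, 7 without litter F, and 0 both with the replicate block (811 at an unadjusted p under 0.05) and without litter B (1333 at an unadjusted p under 0.05). With 1 library left out it ranged from 0 to 7, and all such fits with 6 or more were those without a library of litter F. The replicate block changed no other call, and Nefh had an FDR of 0.1225 with it. The number of members at an unadjusted p under 0.05 was 0 with genotype only and 0 with genotype and sex (260 and 263 genes). With 1 library left out, 2 to 3 members had such a p for genotype and 2 to 4 for sex. Of all genes 670 to 1448 had it for genotype and 605 to 2030 for sex. The number of genes that differed between litters was 196 without litter B, and that between sexes was 36 in the likelihood ratio test. Vim turned to -0.0020 without either replicate 5 library (0.066 at the other end of the fits with 1 library left out) and to -0.025 without litter B. Gfap turned to -0.030 without WT replicate 2 and to -0.016 without KO replicate 2 (0.097 at the other end) and to -0.083 without litter B. The difference between sexes turned to -0.0023 for Ina without either replicate 4 library (range to 0.031), to -0.012 for Nes without either replicate 5 library (to 0.084) and to -0.013 for Gfap without WT replicate 2 (to 0.15). The Gfap to Vim ratio turned to -0.074 without replicate 2 and to -0.0097 without replicate 7 (range to 0.066), and the Nefm to Nefl ratio to 0.0054 without replicate 6 and to 0.039 without replicate 7 (range from -0.064). In the level order, the neighbouring steps past an adjusted p of 0.05 numbered 5, and 4 with the longest coding transcript. With 1 WT library left out they numbered 0 to 5 with the order of the means unchanged, since 6 libraries rarely allow an adjusted p under 0.05. Relations with an absolute r above 0.6 numbered 4 with litter means subtracted and 3 in residuals of litter, sex and genotype. The fits without litter B, the pair tests without litter F and the residuals were added after the data had been seen. The cause of these changes was not tested.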

Other observations

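Of 28 groups of 7 libraries (8 members and 6 ratios in WT and in KO), 0 held a library that stood apart by Dixon's test, where chance would give 1.4.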
